A study of Drosophila melanogaster with 4 samples.

Results

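The Turandot genes and the core of the JAK/STAT pathway were followed in the fat body of Drosophila melanogaster larvae whose muscle carried an RNAi construct against mitochondrial complex I. The 9 genes were taken by name from the deposited tables, out of 13990 distinct symbols. They were the Turandot genes TotA, TotB, TotC, TotM and TotX, the receptor gene dome, the kinase gene hop, the transcription factor gene Stat92E and the feedback gene Socs36E. Each had 1 line in every table, with status OK throughout. In the ND-75-i group, larvae carried dMef2-Gal4 and UAS-ND-75-RNAi, which targets a core subunit of complex I. In the Con group, larvae carried dMef2-Gal4 and UAS-white-RNAi, which targets an eye pigment transporter gene. All larvae were labelled yw, were in the third instar and were taken 110 h after egg laying, and each of the 2 samples per group pooled 10 fat bodies. The labels give no sex. dMef2-Gal4 is a driver used for muscle, so the tissue sampled, the fat body, is another tissue than the one the driver is used for.

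In the fly JAK/STAT pathway, secreted Unpaired ligands bind the receptor Domeless, which activates the kinase Hopscotch. Hopscotch phosphorylates Stat92E, which enters the nucleus and switches on target genes, among them Socs36E, whose product dampens the pathway. The Turandot genes encode small secreted proteins that the fat body makes under heat, infection and other stress, and TotA is a classic fat body target of the pathway.

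Values are FPKM, fragment numbers scaled by transcript length and library size, which can be compared between genes because they are scaled by length. Where 2 FPKM are given for a group, they are its replicates 1 and 2. Changes are differences of log2(FPKM + 1), ND-75-i minus Con, with their standard error (SE), from limma fitted across 10023 genes, and a gene was called at a Benjamini-Hochberg adjusted p under 0.05. In bulk tissue, fewer cells of a type and less RNA per cell cannot be told apart. ND-75, listed as ND75, was at 94.8 and 79.0 FPKM in ND-75-i fat bodies, against 46.6 and 43.9 FPKM in Con fat bodies, which does not measure the knockdown in muscle. Summed FPKM were 957235 and 942561 in ND-75-i, against 861027 and 849472 in Con. Over all genes tested the median log2 change was 0.25, so most changes are also given after median-ratio rescaling of the libraries, which brought that median to -0.01. Of 10 fat body markers, 7 had status OK throughout. Of these 7, 4 were higher and 3 lower in each ND-75-i library, beside 53.7% and 21.7% of all genes tested. Limma called 1 of the 7, beside 7.76% of all genes tested called higher and 1.09% called lower. It was the collagen gene Cg25C, which rose to 362 and 310.3 FPKM in ND-75-i, against 182 and 143 FPKM in Con (change 1.05, limma adjusted p = 0.0432). The other collagen gene vkg, FASN1 and apolpp were also higher without overlap, and Lsd-1 was lower. The most abundant of the 7 were Fbp2, a fat body protein gene, and Fbp1, a storage protein receptor gene, and neither was called. Fbp2 was at 6379.9 and 16337 FPKM in ND-75-i, against 29136 and 33073 FPKM in Con. Fbp1 was at 22.5 and 393 FPKM in ND-75-i, against 14971 and 17897 FPKM in Con. Lsp2, Lsp1beta and Lsp1gamma lacked status OK in at least 1 library, so their values were not used. Lsp1beta and Lsp1gamma were listed at 0 in every library. Lsp2 was listed at 16637 and 25411 FPKM in ND-75-i, and at 0 in both Con libraries. Mef2, the gene the driver is named for, was itself listed in the fat body, at 11.9 and 10.1 FPKM in ND-75-i and 9.47 and 6.76 FPKM in Con. Summed muscle markers, of which Act57B and Mef2 were the most abundant, stood at 68.4 and 52.6 FPKM in ND-75-i, against 36.6 and 41.3 FPKM in Con. Of 10 tested 0 were called, with 8 higher and 2 (sls and bt) lower without overlap, beside 53.7% and 21.7% of all genes. Salivary gland markers, led by the glue genes Sgs7 and Sgs3, stood at 27186 and 18491 FPKM in ND-75-i, against 84124 and 39495 FPKM in Con. Of 7 tested 0 were called and 6 were lower without overlap, beside 21.7% of all genes. Gut and Malpighian tubule markers, led by Jon65Aiii and Jon25Bii, stood at 382 and 1083 FPKM in ND-75-i, against 176 and 1063 FPKM in Con. Of 6 tested 1 was called, Jon99Ciii, at 82.3 and 104 FPKM in ND-75-i, against 0.108 and 0.106 FPKM in Con. Uro was lower without overlap, at 11.4 and 14.5 FPKM in ND-75-i, against 21.3 and 21.7 FPKM in Con. Jon65Aiii, Jon25Bii, alphaTry and betaTry overlapped between groups. Gonad markers, led by Fas3 and topi, stood at 39.0 and 38.2 FPKM in ND-75-i, against 20.3 and 35.3 FPKM in Con. Of 4 tested 0 were called, with 1 (Fas3) higher and 2 (aly and topi) lower without overlap.

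TotA was by far the most abundant of the 9 genes, and its levels in the groups lay close together, with the ND-75-i libraries slightly below the Con libraries. Stat92E was lower in both ND-75-i libraries, while dome, hop and Socs36E stayed within 1.34-fold on the scale tested. No member passed the threshold. Of the 9 genes, 6 reached the low filter of 1 FPKM in at least 2 libraries, and each of those 6 was above it in all 4 libraries. Limma called 0 of the 6 in either direction, beside 7.76% of all genes tested called higher and 1.09% called lower. At an unadjusted p under 0.05, 0 members were higher and 1 was lower, beside 29.4% and 7.70% of all genes. The groups did not overlap for dome and Socs36E, the 2 members higher in each ND-75-i library, nor for TotA and Stat92E, the 2 members lower in each, beside 53.7% and 21.7% of all genes. Median-ratio rescaling again gave calls for 0 members, beside 3.47% of genes called higher and 1.39% lower. Quantile normalization gave 0 members higher and 2 lower, TotA and Stat92E, beside 6.04% and 3.78%. The median change of the 6 was -0.07, and -0.32 after median-ratio rescaling.

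**Figure D1:**
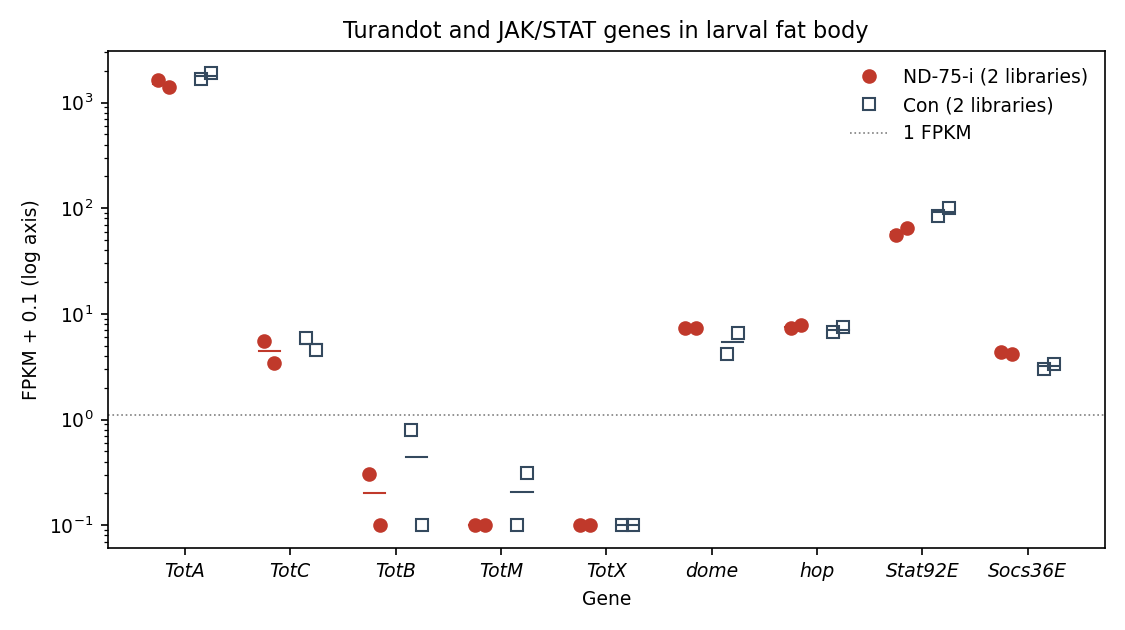
FPKM of the 9 genes in each library, with 0.1 added and on a log axis, ND-75-i left of Con. Points are libraries, short lines are the mean of 2 libraries and the dotted line marks 1 FPKM. TotA lies at 1394 FPKM or above in all 4 libraries, and TotB, TotM and TotX lie below 1 FPKM in all 4.

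TotA encodes the founding member of the Turandot family, a stress protein secreted into the haemolymph. It lies on chromosome arm 3R at 16696758 to 16697427 in the deposited tables, whose genome build is not given in the sources used here. Its level was 1629.6 and 1394 FPKM in ND-75-i fat bodies, against 1665 and 1890.3 FPKM in Con fat bodies. The lowest Con library stood just above the highest ND-75-i library, and the bounds deposited with the 2 values, 1596 to 1663 FPKM in ND-75-i and 1629 to 1701 FPKM in Con, overlapped. The means were 1512 ± 167 FPKM in ND-75-i and 1778 ± 159 FPKM in Con (SD, n = 2 each), a change of -0.24 (SE 0.139, limma adjusted p = 0.259). After median-ratio rescaling it was -0.53 (limma adjusted p = 0.0770), and quantile normalization of the libraries gave -0.81 with a call (limma adjusted p = 0.0277). By level TotA ranked 132 and 139 of the 14146 lines in ND-75-i, against 84 and 76 in Con, and it took 0.170% and 0.148% of summed FPKM in ND-75-i, against 0.193% and 0.223% in Con.

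The other Turandot members were low or undetected beside TotA. TotC, a relative of TotA in the same cluster, was at 5.39 and 3.30 FPKM in ND-75-i, against 5.85 and 4.42 FPKM in Con. The groups overlapped, and the change was -0.22 (SE 0.282, limma adjusted p = 0.574), or -0.46 after median-ratio rescaling. For a gene with 1 start site, the bounds deposited with each FPKM imply how many fragments lie behind it. For TotC these were 27 and 15 in ND-75-i and 26 and 20 in Con. TotB, the next gene along, was at 0.205 and 0 FPKM in ND-75-i, against 0.694 and 0 FPKM in Con, which corresponds to 1 and 0 fragments in ND-75-i and 3 and 0 in Con. TotM, a member on chromosome arm 2L, was listed at 0 in both ND-75-i libraries, against 0 and 0.211 FPKM in Con, or 1 fragment in the one Con library. TotX was listed at 0 in all 4 libraries. TotB, TotM and TotX fell below the low filter and were not tested, and at this depth no difference in them was detectable. Of the FPKM summed over the 5 Turandot members, TotA alone made up 99.7% and 99.8% in ND-75-i, and 99.6% and 99.8% in Con.

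TotA stands beside these scarce genes on the chromosome. TotA, TotC, TotB and TotZ lie in a row on the same strand of 3R, with 1282 bases between TotA and TotC and 361 between TotC and TotB in the deposited coordinates. TotX lies further along, 33880 bases from TotA, on the opposite strand and inside CG5621. Within a library TotA exceeded TotC 302- and 423-fold in ND-75-i, and 285- and 428-fold in Con, so that this ratio overlapped between the groups. In the current Ensembl annotation, TotA and TotC both encode 129 codons in 2 exons, TotM 131, TotB 138 and TotX 142, the last in 1 exon. Similar copies can share reads, and how the authors' counting divided such reads is not given in the sources used here. The flanking gene CG3822, before TotA, was at 3.48 and 2.84 FPKM in ND-75-i, against 0.630 and 0.618 FPKM in Con. CG10830, beyond TotZ, was at 6.32 and 4.17 FPKM in ND-75-i, against 2.50 and 0.762 FPKM in Con.

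**Figure D2:**
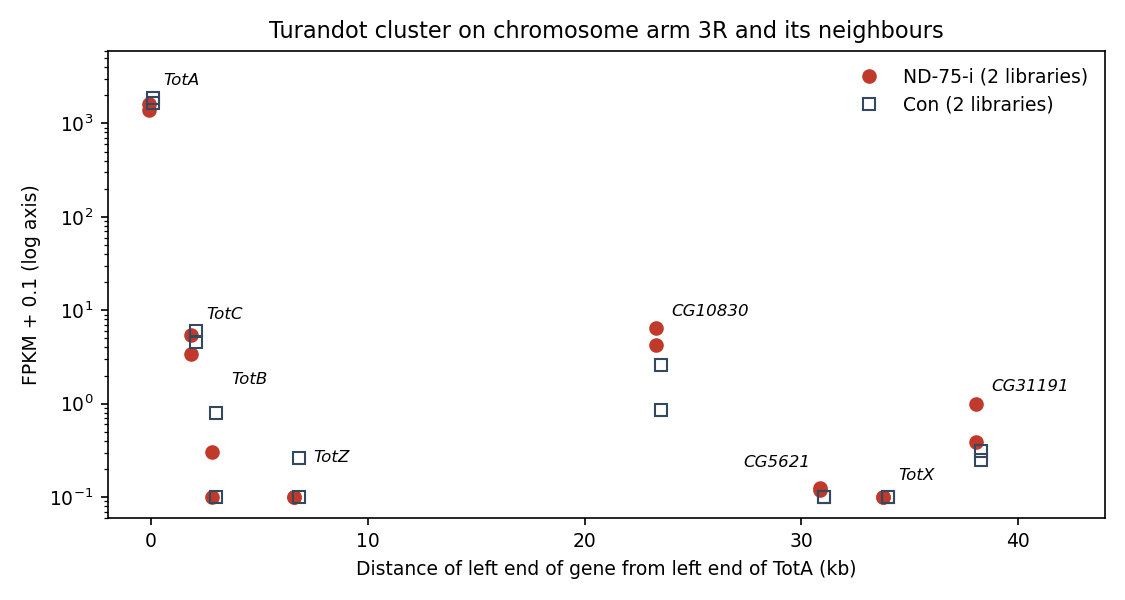
FPKM with 0.1 added, on a log axis, of the Turandot genes on chromosome arm 3R and of 3 neighbouring genes, against the distance of each gene's left end from that of TotA in kilobases. Filled points are the 2 ND-75-i libraries and open squares the 2 Con libraries. TotA stands at 1394 to 1890.3 FPKM while TotC, 1952 bases away, stands at 3.30 to 5.85 FPKM.

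Of the 3 Turandot genes outside the 9, 1 was tested and it was called higher, beside 7.76% of all genes tested. TotF, a family member on 2L at 19911865 to 19912377, was at 10.1 and 17.9 FPKM in ND-75-i, against 1.50 and 1.18 FPKM in Con. Both ND-75-i libraries were well above both Con libraries, a change of 2.63 (SE 0.319, limma adjusted p = 0.0308). The implied fragments were 38 and 61 in ND-75-i and 5 and 4 in Con, so the Con level rests on few fragments. After median-ratio rescaling the change was 2.41 and missed the threshold (limma adjusted p = 0.0512). With voom weights, which take the implied fragments into account, it was 2.60 and also missed it (limma adjusted p = 0.0540). With any 1 of the 4 libraries left out, the change of TotF on the FPKM as deposited ranged from 2.25 to 3.02. Victoria, also called TotE, lies 470 bases from TotF on the same strand and was at 0.651 and 0.897 FPKM in ND-75-i, against 0 and 0.360 FPKM in Con, below the filter. TotZ was listed at 0 in both ND-75-i libraries, against 0 and 0.164 FPKM in Con. TotF and Victoria lie inside sick, a gene on the other strand with which they share 0 exonic bases in the current annotation, and sick was at 5.49 and 5.07 FPKM in ND-75-i, against 3.19 and 2.95 FPKM in Con. The strand setting of the authors' counting is not given in the sources used here, so reads from TotF and from unspliced sick RNA cannot be told apart.

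The ligands of the pathway were nearly absent from the fat body libraries. The gene for the ligand upd1, listed as os, was at 0.750 and 0.515 FPKM in ND-75-i, against 0.294 and 0.468 FPKM in Con. Its relative upd3, which blood cells release on infection, was at 0.162 and 0.107 FPKM in ND-75-i, against 0.0366 and 0 FPKM in Con. The gene upd2, which in adult flies encodes a fat body signal to the brain, was listed at 0 in all 4 libraries. For upd1 and upd3 the ND-75-i libraries lay above the Con libraries, but all values were under 1 FPKM and none was tested.

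The receptor gene dome, on the X at 19570090 to 19577549, was at 7.33 and 7.19 FPKM in ND-75-i, against 4.04 and 6.50 FPKM in Con. The Con libraries lay further apart than the groups' nearest values, and the change was 0.43 (SE 0.247, limma adjusted p = 0.253), or 0.18 after median-ratio rescaling. Con replicate 1 carried much of it, since without that library the change was 0.14. The gene et, listed as CG14225, encodes a related receptor that inhibits signalling, and it lies 97 bases from dome on the same strand. It was at 19.0 and 20.3 FPKM in ND-75-i, against 19.3 and 23.9 FPKM in Con. The change was -0.12 (SE 0.147, limma adjusted p = 0.537), or -0.40 after median-ratio rescaling. Within each library et was more abundant than dome, 2.59- and 2.82-fold in ND-75-i, against 4.77- and 3.68-fold in Con.

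The Janus kinase gene hop, on the X at 11254932 to 11262130, was at 7.19 and 7.73 FPKM in ND-75-i, against 6.64 and 7.38 FPKM in Con. The groups overlapped, with a change of 0.08 (SE 0.145, limma adjusted p = 0.687), which turned to -0.18 with median-ratio rescaling and to -0.11 with quantile normalization. The locus of hop overlaps that of CG11750 on the other strand, with which it shares 0 exonic bases in the current annotation.

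Stat92E, the only STAT gene of the fly, had the largest change among the 6 members tested, as deposited and after either rescaling. It lies on 3R at 16361406 to 16378034 and was at 55.3 and 64.6 FPKM in ND-75-i fat bodies, against 85.0 and 101 FPKM in Con fat bodies. The groups did not overlap, nor did the deposited bounds, which reached 68.1 FPKM at most in ND-75-i and 82.0 FPKM at least in Con. The means were 59.9 ± 6.55 FPKM in ND-75-i and 93.2 ± 11.7 FPKM in Con (SD, n = 2 each), a change of -0.63 (SE 0.142, unadjusted p = 0.0118), which missed the threshold over all genes (limma adjusted p = 0.0716). A change further below 0 was found in 16.6% of all genes tested. After median-ratio rescaling the change was -0.91 (limma adjusted p = 0.0598). The threshold was passed after quantile normalization (-0.93, limma adjusted p = 0.0354) and with the replicate number as a block (limma adjusted p = 0.0481). It was also passed with voom weights (limma adjusted p = 0.0461), which rest on implied fragments. For Stat92E these were 364 and 1373 in ND-75-i and 3174 and 1722 in Con, out of proportion to its FPKM. Stat92E has 2 start sites in the deposited tables and 11 transcripts in the current annotation, and its bounds were wider relative to its level in ND-75-i replicate 1, 49.5 to 61.1 FPKM, than in Con replicate 1, 82.0 to 88.0 FPKM.

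Ratios within a library do not depend on the scaling between libraries, and they set Stat92E apart from its upstream partners in both groups. Stat92E exceeded hop 7.69- and 8.35-fold in ND-75-i, against 12.8- and 13.8-fold in Con. It exceeded dome 7.55- and 8.97-fold in ND-75-i, against 21.0- and 15.6-fold in Con. For these 2 ratios and for et over dome, the ND-75-i libraries all lay below the Con libraries. For Stat92E over dome this had to be so, since Stat92E was lower and dome higher in ND-75-i without overlap. With 2 libraries a group an exact two-sided permutation test cannot go below p = 0.333, the value each of the 3 ratios gave, so none passed a threshold.

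**Figure D3:**
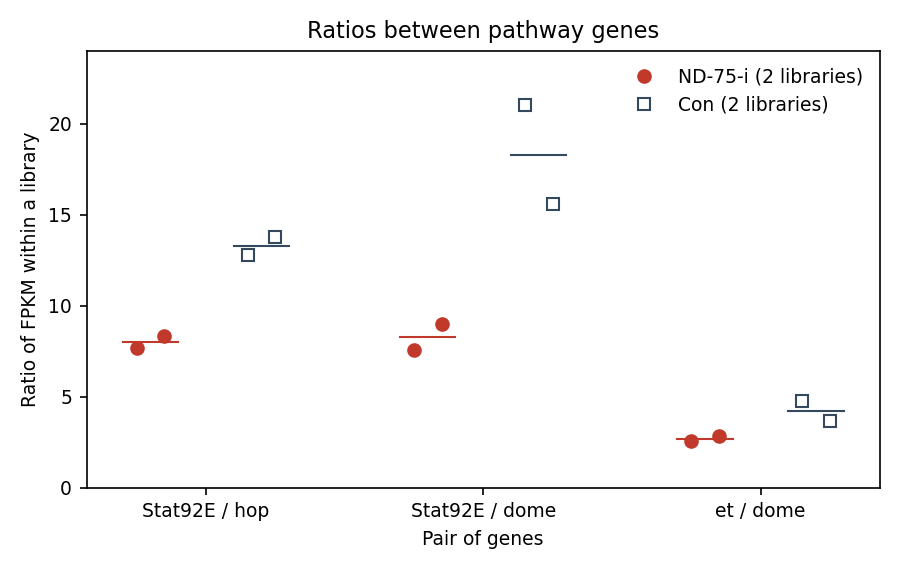
Ratio of FPKM between 2 genes within each library, for Stat92E over hop, Stat92E over dome and et over dome, ND-75-i left of Con. Points are libraries and short lines the mean of 2 libraries. The mean ratio of Stat92E to hop was 8.02 in ND-75-i and 13.3 in Con.

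Socs36E, which encodes a suppressor of cytokine signalling and is itself a Stat92E target, was slightly higher in ND-75-i. It lies on 2L at 18138668 to 18152410 and was at 4.23 and 4.05 FPKM in ND-75-i, against 2.89 and 3.27 FPKM in Con. The groups did not overlap, but the change of 0.33 (SE 0.173) missed the threshold (limma adjusted p = 0.218) and was 0.11 after median-ratio rescaling. By level within the Con libraries the order of the members was TotA, Stat92E, hop, dome, TotC and Socs36E, followed by TotB, TotM and TotX, and of the first 6 only the neighbours dome and TotC overlapped. In the ND-75-i libraries the first 6 stood in the same order of means, and hop overlapped with dome, and TotC with Socs36E.

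Among 12 other regulators of the pathway, limma called 0, beside 7.76% of all genes tested called higher and 1.09% called lower. The median change of the 12 was 0.32, or 0.07 after median-ratio rescaling, beside 0.25 and -0.01 for all genes tested. At an unadjusted p under 0.05, 5 of the 12 were higher and 2 lower, beside 29.4% and 7.70% of all genes. The groups did not overlap for 10 of the 12, 8 of them higher and 2 lower in ND-75-i, beside 53.7% and 21.7% of all genes. The SOCS family genes Socs16D and Socs44A overlapped between groups, with changes of 0.06 and 0.13 that were -0.20 and -0.13 after median-ratio rescaling. Ptp61F, a phosphatase that acts on the kinase and the STAT, was at 17.5 and 17.0 FPKM in ND-75-i, against 12.9 and 15.7 FPKM in Con (limma adjusted p = 0.238), a change of 0.26 that was -0.02 after that rescaling. Su(var)2-10, the PIAS protein gene, was at 21.1 and 18.0 FPKM in ND-75-i, against 13.0 and 15.1 FPKM in Con (limma adjusted p = 0.12). The SUMO gene smt3 was at 346 and 334 FPKM in ND-75-i, against 201 and 274 FPKM in Con (limma adjusted p = 0.12). The repressor gene ken, the NURF subunit gene E(bx), wdp and BRWD3 had changes of 0.34, 0.53, 0.31 and 0.40 with limma adjusted p of 0.314, 0.0975, 0.103 and 0.187. After median-ratio rescaling these changes were 0.11, 0.26, 0.03 and 0.14.

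The endosomal members of that list had changes in different directions. Stam, an adaptor that sorts receptors in endosomes, was at 16.0 and 16.8 FPKM in ND-75-i, against 22.6 and 25.6 FPKM in Con. Its partner Hrs was at 11.1 and 11.5 FPKM in ND-75-i, against 15.4 and 16.7 FPKM in Con. The changes were -0.53 and -0.47 (limma adjusted p = 0.0699 and 0.0790), and after median-ratio rescaling Stam passed at -0.81 (limma adjusted p = 0.0491) while Hrs did not at -0.74 (0.0559). The gene arj, listed as asrij, encodes an endosomal protein that promotes STAT activity in blood cell precursors, and it was at 34.1 and 29.7 FPKM in ND-75-i, against 17.0 and 19.5 FPKM in Con (change 0.77, limma adjusted p = 0.0505, and 0.49 with an adjusted p of 0.0838 after median-ratio rescaling).

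Other genes known to respond to Stat92E were mixed. Of 8 such genes, 6 were tested, 1 rose and 0 fell, beside 7.76% of all genes called higher and 1.09% called lower, with a median change of -0.01, or -0.23 after median-ratio rescaling. The one that rose was vir-1, a marker of the response to RNA virus infection, at 1044 and 986 FPKM in ND-75-i, against 512 and 578 FPKM in Con. Both ND-75-i libraries were above both Con libraries, a change of 0.90 (SE 0.106, limma adjusted p = 0.0293). After median-ratio rescaling it was 0.61 (limma adjusted p = 0.0472). Quantile normalization gave 0.41 and ended the call (limma adjusted p = 0.0769). With any 1 of the 4 libraries left out, the change of vir-1 on the FPKM as deposited ranged from 0.81 to 0.99.

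The thioester protein genes lay on the other side. Tep1, listed as TepI, encodes a secreted complement-like protein and was at 1.19 and 0.593 FPKM in ND-75-i, against 4.41 and 7.38 FPKM in Con. The change was -1.85 (SE 0.332, limma adjusted p = 0.0534). Tep2, listed as TepII, was at 104 and 103 FPKM in ND-75-i, against 144 and 137 FPKM in Con, a change of -0.44 (SE 0.0788, limma adjusted p = 0.0534). For both genes each ND-75-i library lay below each Con library. Tep1 passed after median-ratio rescaling (-2.03, limma adjusted p = 0.0488) and Tep2 did not (-0.73, 0.0546), and both passed after quantile normalization (limma adjusted p = 0.0415 and 0.0243).

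The remaining targets gave no call. The transcription factor gene chinmo was at 9.33 and 5.92 FPKM in ND-75-i, against 4.49 and 3.89 FPKM in Con (limma adjusted p = 0.138), and zfh1 at 2.42 and 1.95 FPKM in ND-75-i, against 2.50 and 3.07 FPKM in Con (limma adjusted p = 0.405). CG13559 overlapped between groups (change 0.23, limma adjusted p = 0.674). Diedel, listed as CG11501, was at 0 in all 4 libraries. Listericin was at 0.815 and 0 FPKM in ND-75-i, against 0 and 0.301 FPKM in Con, and neither of these 2 was tested.

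**Figure D4:**
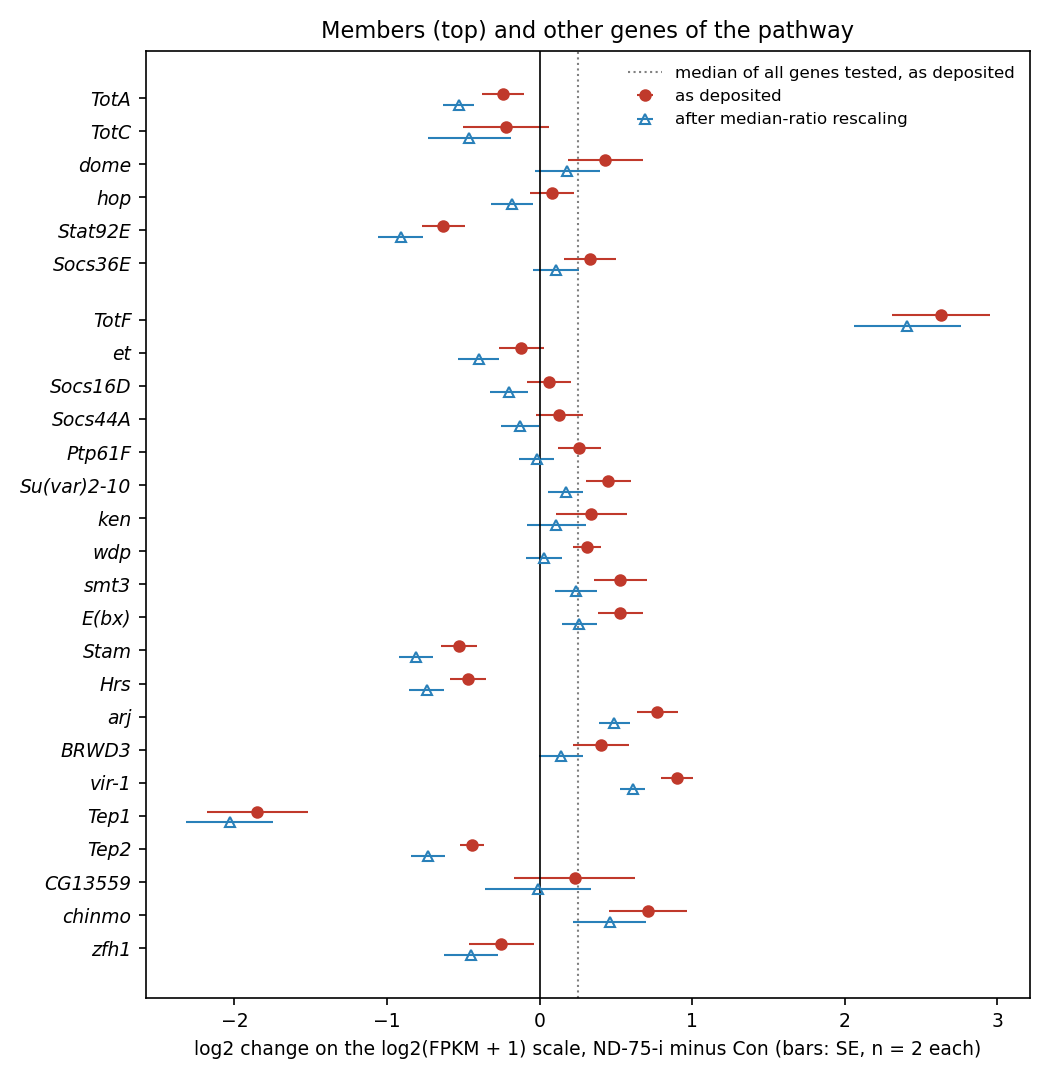
Log2 change on the log2(FPKM + 1) scale, ND-75-i minus Con, of the 6 members tested (top) and of 20 other genes of the pathway, from the FPKM as deposited (filled circles) and after median-ratio rescaling (open triangles), with SE bars and 2 libraries a group. The dotted line marks the median of all genes tested as deposited, 0.25. TotA, TotC and Stat92E lie below 0 on both scales, and TotF stands furthest above 0.

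Fly blood cells express the pathway and attach to tissues, so a list of 10 of their markers was summed. The sum was 81.2 and 102 FPKM in ND-75-i, against 120.2 and 257 FPKM in Con, where replicate 2 stood well above replicate 1. Limma called 0 of the 8 markers tested, beside 7.76% of all genes called higher and 1.09% called lower. At an unadjusted p under 0.05, 0 were higher and 2 lower, beside 29.4% and 7.70% of all genes. Of the 8, 5 were lower in ND-75-i without overlap, beside 21.7% of all genes, and the other 3, Hml, eater and He, overlapped between groups. Below the filter, lz was higher in both ND-75-i libraries and PPO3 overlapped, and none of the 10 was at 0 in all libraries. The most abundant were srp, a GATA factor gene that the fat body also expresses, at 37.1 and 38.9 FPKM in ND-75-i and 43.4 and 46.6 FPKM in Con, and PPO2, a crystal cell prophenoloxidase gene, at 12.6 and 19.9 FPKM in ND-75-i and 28.9 and 76.4 FPKM in Con. The part of blood cells in the values of Stat92E, Tep1 and Tep2 was not tested.

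Turandot genes also respond to the MEKK1 and p38 stress kinases and to the Imd pathway, whose NF-kappaB factor is Relish. Of 14 genes of the p38 and JNK kinase arms, 1 was called higher and 0 lower, a share near the 7.76% of all genes called higher. The median change of the list was 0.40, or 0.13 after median-ratio rescaling. At an unadjusted p under 0.05, 7 of the 14 were higher and 0 lower, beside 29.4% and 7.70% of all genes. The gene called was bsk, the JNK gene, at 43.3 and 40.8 FPKM in ND-75-i, against 23.8 and 27.2 FPKM in Con (change 0.70, SE 0.113, limma adjusted p = 0.0442). With any 1 of the 4 libraries left out, the change of bsk on the FPKM as deposited ranged from 0.61 to 0.79. After median-ratio rescaling the change of bsk was 0.42 and missed the threshold (limma adjusted p = 0.0893). The call of bsk was also lost after quantile normalization (limma adjusted p = 0.0726), with no low filter (0.0544) and with the replicate block (0.0560). Mekk1 was at 13.1 and 13.4 FPKM in ND-75-i, against 8.0 and 9.41 FPKM in Con (limma adjusted p = 0.0804). The JNK phosphatase gene puc was at 5.88 and 6.85 FPKM in ND-75-i, against 4.29 and 3.87 FPKM in Con (limma adjusted p = 0.115). Of 9 Imd pathway genes 0 were called by limma. At an unadjusted p under 0.05, 3 of them were higher and 0 lower, near the 29.4% of all genes that were higher, and the list had a median change of 0.29, or 0.01 after median-ratio rescaling. The gene of Relish, Rel, was at 28.3 and 29.8 FPKM in ND-75-i, against 25.3 and 27.7 FPKM in Con, a change of 0.13 (limma adjusted p = 0.380) that was -0.15 after median-ratio rescaling.

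The genes whose profile over the 4 libraries lay nearest to a member were found by the Euclidean distance between log2(FPKM + 1) values centred on each gene's mean. For TotA, the nearest 5 of the genes tested were zfh1 (distance 0.0306), CG12214 (0.0558), Mpk2 (0.0558), CG4686 (0.0584) and 26-29-p (0.0657). For Stat92E they were nimB5 (distance 0.0351), Sox14 (0.0481), Dip-B (0.0532), Irp-1A (0.0859) and lbm (0.0861). For example, nimB5 was at 39.9 and 45.6 FPKM in ND-75-i, against 59.5 and 72.8 FPKM in Con. With 4 libraries such likeness is a description of these samples only.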

How the data were processed

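The deposited files are 1 table of gene FPKM per library, with 14146 lines, lower and upper bounds and a status, per the file headers. The submitters' processing notes name Bowtie 0.12.2. Which program made the FPKM, on which annotation and build and with which strand setting, is not given in the sources used here. Starts are printed with 1 added. FPKM share each library's total, so a few very abundant genes can move all others.

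The 10023 genes tested had status OK in every library and at least 1 FPKM in at least 2. For 93 symbols found on several lines the most abundant line was kept, and 5 names that had become dates in Con replicate 1 were matched by line. The test was limma 3.58.1 (R 4.3.3), two-sided, on log2(FPKM + 1), with group alone in the model and a trend on intensity. Benjamini-Hochberg adjustment ran over all genes tested, with a threshold of 0.05. This scale understates changes where FPKM are low. Since the labels do not give separate crosses, p-values reflect no more than the scatter among these 4 samples, and that scatter may be technical. Implied fragments are the FPKM divided by 0.5 of the distance to its upper bound, squared. Below 200 fragments and with 1 start site, 80.6% to 81.7% of genes had a value whole within 0.05. Genes with more start sites or more fragments were not checked in this way. For Stat92E, with 2 start sites, the values were out of proportion to its FPKM, so they are not fragment numbers. Over all genes the implied fragments summed to 11880988 and 10645797 in ND-75-i and to 9576230 and 9803588 in Con. Where they do follow fragment numbers, they cover counting error only.

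The 9 members, the gene lists and the tests were chosen with earlier results of these data known. Named genes were the members, every gene of the 4 pathway lists, Mekk1, Rel, puc and any other stress kinase or Imd gene past the threshold, the 2 most abundant of a marker list whose sum is given, and the 5 nearest profiles to TotA and Stat92E. ND-75, other marker genes and genes beside or around members were added outside this rule. Of the list symbols, 17 were matched to an older symbol through the RefSeq table. Strands, exons and codons came from the current Ensembl annotation, with no coordinates taken from it. The fit was tested on simulated data. The settings varied were the scaling (median-ratio or quantile), the pseudocount (0.1 or 5), the low filter (none, or a mean of 5 FPKM or more), the status required, voom weights from the implied fragments, the replicate number as a block and the libraries, each left out in turn. Python 3.11.15 with pandas 2.3.3 and NumPy 2.4.6 made the tables, and matplotlib 3.10.9 the figures.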

Additional observations from a re-analysis of the deposited data

How the results depend on the processing

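Over all genes limma called 778 higher and 109 lower; median-ratio rescaling gave 348 higher, quantile normalization 379 lower, voom weights 1328 higher and 212 lower, and the replicate block 198 lower. Without 1 library the counts were 0 to 2 higher and 0 to 1 lower, where the lone library of a group is assumed to vary like the other group. Of the members 0 were called lower, against 2 after quantile normalization (TotA at -0.81 and Stat92E at -0.93), 1 with voom weights and 1 with the replicate block (Stat92E at -0.63 in both), and 0 without any 1 library. Of the 43 pathway list genes tested, 3 were called higher and 0 lower, beside 7.76% and 1.09% of all genes tested. Median-ratio rescaling called 1 higher and 2 lower, beside 3.47% and 1.39%, and quantile normalization 1 and 4, beside 6.04% and 3.78%. A pseudocount of 5 called 5 higher and 0 lower, beside 897 and 131 over all genes. Voom weights called 5 and 2, beside 1328 and 212, and a mean of at least 5 FPKM 6 and 3, beside 1136 and 160. The cause of these shifts was not tested.

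After median-ratio rescaling and quantile normalization the sign turned for hop (-0.18 and -0.11), Socs16D (-0.20 and -0.13), Socs44A (-0.13 and -0.08) and Rel (-0.15 and -0.13), and after the first alone for Ptp61F (-0.02) and CG13559 (-0.01). With 1 library left out, the change ranged from -0.50 to 0.07 for TotC, from -0.27 to 0.02 for et, from -0.02 to 0.14 for Socs16D and from -0.17 to 0.63 for CG13559. It ranged from -0.35 to -0.12 for TotA, from -0.75 to -0.50 for Stat92E, from 0.14 to 0.71 for dome, from 0.01 to 0.15 for hop and from 0.27 to 0.40 for Socs36E. TotC and Socs36E gave no value at a mean of at least 5 FPKM. TotB and TotM gave one only with no low filter (-0.25 and -0.14, limma adjusted p = 0.578 and 0.427). Deviations of same-numbered libraries from their group means correlated at 0.357 across genes, and with 2 pairs this does not show that the numbers pair the samples.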
